A study of Caenorhabditis elegans with 6 samples.

Results

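The nas genes of Caenorhabditis elegans encode secreted zinc proteases of the astacin family. They were taken as every gene whose symbol is nas- plus a number and that has at least 1 non-control probe on the arrays, apart from 2 genes of the family that are not analysed here. This gave 35 genes with 104 probes, out of 20439 named genes and 43603 probes. RNA came from whole young adults that had not begun to reproduce, of the wild type strain labelled WTN2 and of strain RB1035, a flcn-1 mutant that was backcrossed 8 times according to the design text. Each strain had 3 arrays, described as biological triplicates. Folliculin, the human counterpart of FLCN-1, is a tumour suppressor. The flcn-1 transcript itself differed by -0.11 on the log2 scale (limma adjusted p = 0.901), which does not check the strain labels, because neither the labels nor the files place the lesion relative to the probe.

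Astacins are made as inactive precursors, lose a propeptide, and cut proteins outside the cell with a zinc ion held by a conserved histidine motif. In the worm they work at surfaces that carry cuticle or meet food. Members act in hatching, in trimming collagens, in the renewal of the cuticle at each moult and in the pharynx, the muscular feeding tube that is lined with its own cuticle. The family is usually sorted by the domains behind the protease. Subgroup I (nas-1 to nas-5) has none of the usual additional domains, and subgroup II (nas-6 to nas-15) carries short cysteine-rich ShK domains. Members of subgroup III (nas-16 to nas-30) mostly carry EGF-like and CUB domains, those of subgroup V add a thrombospondin type 1 repeat, and nas-39 resembles the vertebrate tolloid proteases.

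In the adults measured here, 22 of the 35 nas genes were detected well enough to be tested, and none of them differed between RB1035 and WTN2 past the threshold. A gene was tested when a single probe of it stood well above background on 3 or more of the 6 arrays, and it is represented by its brightest such probe. Levels are given as log2 signal minus the 75th percentile of the same array, so that 0 is the level of that percentile, and all differences are RB1035 minus WTN2 on this scale. Over all features 20 of 19822 changed by limma with Benjamini-Hochberg adjustment, which is 0.101% (0.0202% higher and 0.0807% lower in RB1035). Among the nas genes the count was 0, and 0 also had an unadjusted p under 0.05, compared with 7.23% of all features. The lowest unadjusted p of a nas gene was 0.0534 and the lowest adjusted p was 0.65. Of the 22 genes 14 were higher and 8 lower, and their median difference was 0.24, beside a median of 0 over all tested features. The number of arrays limits the precision: the 95% interval of a nas gene reached a median of 0.83 to each side, and it stayed within 2-fold for 7 genes, nas-8, nas-11, nas-12, nas-20, nas-21, nas-28 and nas-39. For the other 15 a difference of 2-fold or more in at least 1 direction lies inside the interval. Whole animals were used, so that fewer cells of a type and less RNA per cell cannot be told apart.

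**Figure D1:**
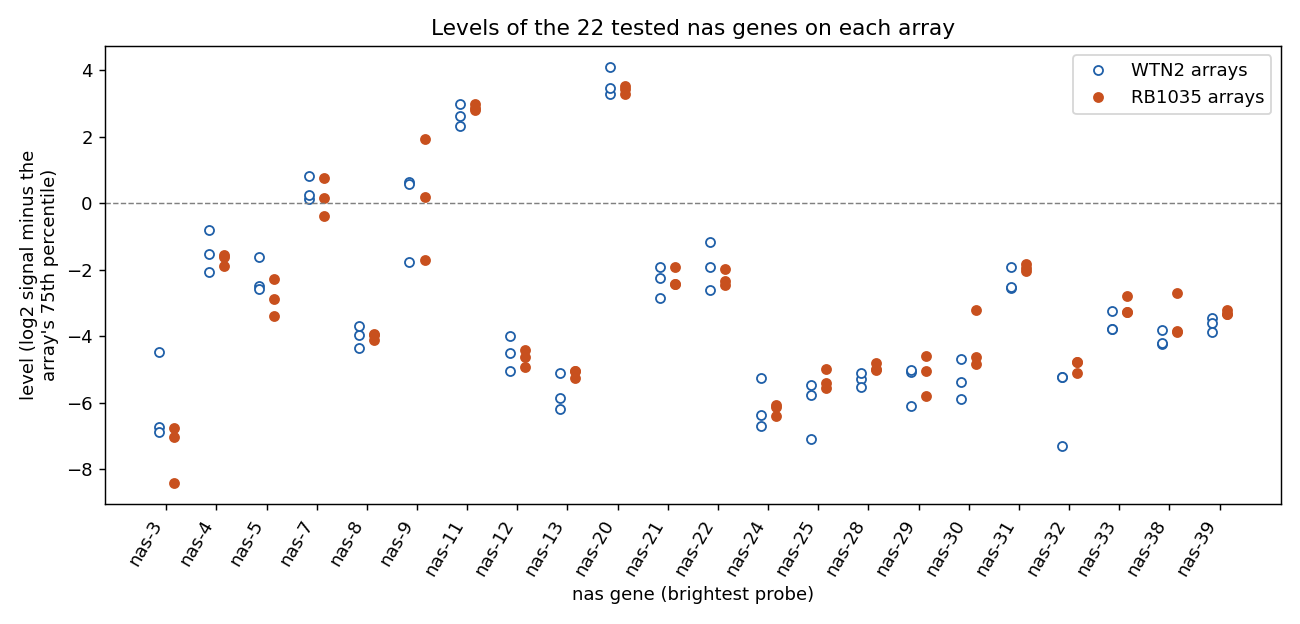
Level of each of the 22 tested nas genes (log2 signal minus the array's 75th percentile, y axis) on the 3 WTN2 arrays (open circles) and the 3 RB1035 arrays (filled circles). The arrays of both strains overlap for all but nas-28, nas-32 and nas-39, and nas-9, nas-3 and nas-32 show wide spread. Heights of different genes are not comparable, because brightness depends on the probe.

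The arrays lay on 2 slides. Slide 1 held WTN2 1 and RB1035 1, and slide 2 held the other 4 arrays. The share of probes well above background ran from 68.0% to 73.1% over the arrays. Copies of the same probe varied by a median of 22.4% and 20.9% on RB1035 2 and RB1035 3, compared with 8.2% to 10.9% on the others. The part of this difference in array quality in the values of slide 2 was not tested. Markers of the main tissues were detected, with 7 of 8 epidermal, 6 of 6 pharyngeal muscle, 7 of 7 pharyngeal gland, 6 of 6 intestinal, 4 of 4 body wall muscle, 4 of 4 neuronal, 4 of 5 sperm, 5 of 5 oocyte and 3 of 3 vulval and uterine markers tested. The body wall muscle markers had a median difference of 1.3, and their mean deviation ran from -1.5 on WTN2 3 to 1.4 on RB1035 2. The body wall muscle median was 0.18 on slide 1 and 2.01 on slide 2. Oocyte markers differed by a median of 0.51 (-0.16 on slide 1 and 0.74 on slide 2) and sperm markers by -0.61 (-0.3 and -0.97). The only marker to pass the threshold was phat-5.

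The 13 nas genes that were not tested fall into 2 kinds. No probe was well above background on any array for 7 genes: nas-2, nas-6, nas-15, nas-16, nas-18, nas-19 and the pseudogene nas-40. These include nas-6 and nas-15, both reported in the pharynx. NAS-6 is required for a normal grinder, the hard cuticle plate with which the worm crushes bacteria. For the other 6, detection was sporadic. A probe of nas-17 and a probe of nas-23 were well above background on RB1035 1 only, nas-1 on RB1035 2 only, nas-10 on RB1035 3 only, and nas-27 on RB1035 2 and RB1035 3. Different probes of nas-14 were so on WTN2 2, WTN2 3 and RB1035 3, and none of them on enough arrays to be tested. No fold is given for any of the 13, since their levels are bounded only from above on most arrays.

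Chromosome V carries 14 of the 35 genes and the X chromosome 7. On chromosome V the gene order of assembly WBcel235 holds a run of 4 astacins, nas-16, nas-18, nas-17 and nas-19, with 1 other coding gene or pseudogene among them. After 13 further genes comes a run of 3, nas-20, nas-21 and nas-22, with none between. The runs differed in detection and in their number of probes. Genes of the first run have 1 or 2 probes each, and nas-20, nas-21 and nas-22 have 4, 8 and 6. More probes give a gene more chances to be tested. No gene of the first run was tested, while all 3 of the second were well above background on all 6 arrays. Of these, nas-20 had levels of 3.29, 3.46 and 4.11 on WTN2 1 to 3 and of 3.43, 3.28 and 3.54 on RB1035 1 to 3. The strains overlapped, and the difference was -0.2 ± 0.3 (SE, n = 3 arrays per strain; limma adjusted p = 0.815). The 4 probes of nas-20 differed by -0.53 to -0.2, and the brightest, which represents the gene, gave the smallest difference. The neighbour nas-22 was at -2.59, -1.91 and -1.16 in WTN2 and at -1.97, -2.44 and -2.33 in RB1035. Its highest array was WTN2 3 and its lowest WTN2 1, so that the RB1035 arrays lay within the wild type range. It differed by -0.36 (limma adjusted p = 0.748), and its 6 probes, which share 1 transcript and are no replicates, differed by -0.81 to -0.36. Slide 1 gave 0.61 and slide 2 gave -0.85, and without WTN2 3 the nas-22 difference was 0.0. For nas-21 8 probes gave differences between -0.09 and 0.24.

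A single gene of the family, nas-2, sits near the transcript with the largest drop in RB1035. It lies 4 places from F56A4.3 on chromosome V in WBcel235, and the F56A4.3 signal was at least 655-fold lower in RB1035, where no array was well above background (limma adjusted p = 7.14e-06). Such a bound sets the brighter strain against the dimmest signal that counts as well above background. The 3 genes between them, irld-35, F56A4.2 and F56A4.10, differed by -3.33, -1.43 and -2.27 and did not pass (adjusted p = 0.505, 0.351 and 0.218). On the other side of nas-2 the tested genes mct-2, C01B4.8, C01B4.7 and C01B4.6 were also lower, by -1.04, -1.93, -1.49 and -1.08. They did not pass either (limma adjusted p = 0.65, 0.155, 0.322 and 0.65). The nas-2 probe itself stayed below the detection limit in both strains, so the arrays give no difference for it. These neighbours were chosen after their values had been seen.

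The pharyngeal members were compared next. Of 6 genes reported in the pharynx 4 were tested, and all 4 had lower means in RB1035, none past the threshold. Their median difference was -0.23, with differences from -0.62 to -0.13. The assignment to the pharynx rests on published reporter studies and not on the files, and several of these genes are also active elsewhere.

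The gene nas-5 was at -2.47, -2.58 and -1.6 on WTN2 1 to 3 and at -2.26, -3.39 and -2.86 on RB1035 1 to 3. WTN2 3 was the brightest and RB1035 2 the dimmest array, and RB1035 1 was above WTN2 1 and WTN2 2. The difference was -0.62 ± 0.4 (SE; limma adjusted p = 0.659), with a 95% interval from -1.53 to 0.28. It was -0.32 without WTN2 3 and -0.35 without RB1035 2. Levels of nas-7 were 0.14, 0.26 and 0.84 in WTN2 and 0.76, -0.37 and 0.15 in RB1035. Again WTN2 3 was highest and RB1035 2 lowest, and the strains overlapped. Its difference was -0.23 ± 0.36 (SE; limma adjusted p = 0.822), and its 3 probes differed by -0.27 to 0.26. For nas-4, which is also reported in the intestine, the levels were -2.06, -1.51 and -0.79 in WTN2 and -1.62, -1.87 and -1.55 in RB1035. All RB1035 arrays fell inside the wild type range. The difference was -0.23 ± 0.36 (SE; limma adjusted p = 0.821), and 4 probes gave -0.23 to -0.03. The gland gene nas-12 had levels of -4.49, -5.05 and -3.99 in WTN2 and of -4.41, -4.91 and -4.61 in RB1035. Its RB1035 arrays also fell inside the wild type range. It differed by -0.13 ± 0.34 (SE; limma adjusted p = 0.898), and its 6 probes by -0.22 to 0.58.

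The sign common to these 4 genes was not shared by both slides. On slide 1, with 1 array per strain, the differences were 0.21 for nas-5, 0.63 for nas-7, 0.43 for nas-4 and 0.08 for nas-12, with a median of 0.32. On slide 2 they were -1.04, -0.66, -0.56 and -0.24, with a median of -0.61. Without WTN2 3, the array on which all 4 were highest, the median was 0.04. None passed with slide as a block.

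**Figure D2:**
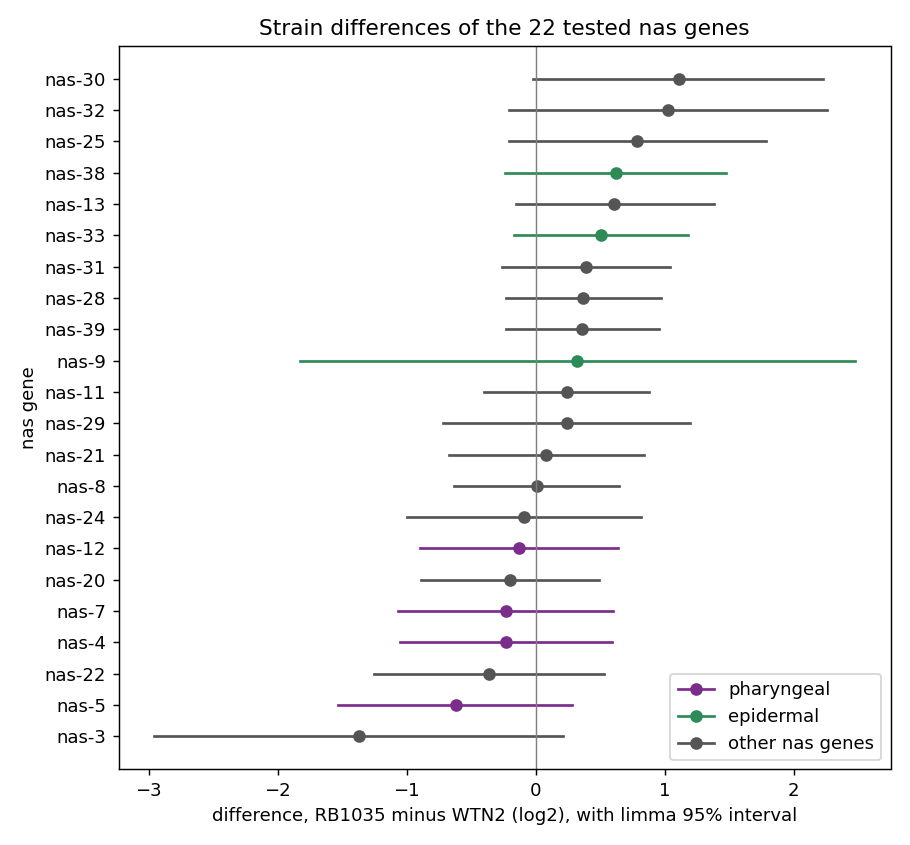
Difference of each tested nas gene, RB1035 minus WTN2 on the log2 scale (points), with its 95% interval from limma (lines), ordered by size and coloured by reported tissue. All 22 intervals include 0, the 4 pharyngeal points lie between -0.62 and -0.13 and the 3 epidermal points between 0.32 and 0.62.

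The epidermal members went the other way in their means. The epidermis, or hypodermis, secretes the body cuticle, and 3 nas genes reported there were all tested. All 3 had higher means in RB1035, none past the threshold, with a median difference of 0.51. Of the 15 tested nas genes on neither list 11 were also higher and 4 lower, with a median of 0.24. The gene nas-38, whose product acts in the epidermis and influences the sleep-like rest that accompanies each moult, was at -4.23, -3.8 and -4.2 in WTN2 and at -3.83, -2.68 and -3.87 in RB1035. RB1035 2 stood alone at the top, and the other RB1035 arrays lay close to WTN2 2. The difference was 0.62 ± 0.37 (SE; limma adjusted p = 0.653), and 0.23 without RB1035 2. Levels of nas-33 were -3.24, -3.78 and -3.79 in WTN2 and -3.27, -2.78 and -3.25 in RB1035. Here too RB1035 2 was highest, while WTN2 1 lay above RB1035 1 and RB1035 3. It differed by 0.51 ± 0.29 (SE; limma adjusted p = 0.652), and its 3 probes by 0.45 to 0.68.

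The third, nas-9, was the least even of the family. Its level was 0.65, 0.58 and -1.76 on WTN2 1 to 3 and 0.19, 1.94 and -1.69 on RB1035 1 to 3. WTN2 3 and RB1035 3 lay low and the other 4 arrays high, in both strains. Its standard deviation was 1.37 in WTN2 and 1.82 in RB1035, beside medians of 0.38 and 0.35 over all features. The strain difference of 0.32 ± 0.94 (SE; limma adjusted p = 0.91) had a 95% interval from -1.83 to 2.48. It was -0.47 without WTN2 3 and -0.58 without RB1035 2, so nas-9 has no stable direction. A single probe reports this gene. On slide 1 the 3 epidermal genes differed by 0.4 (nas-38), -0.02 (nas-33) and -0.46 (nas-9), and on slide 2 by 0.73, 0.77 and 0.72. The median of the list was 0.23 without RB1035 2.

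Set beside other genes of their tissues, the pharyngeal and epidermal nas genes gave different array profiles. A deviation is the level of a gene minus its own mean over the 6 arrays, and it was averaged over the genes of a list. For the pharyngeal nas genes it was -0.13, -0.12 and 0.71 on WTN2 1 to 3 and 0.21, -0.54 and -0.12 on RB1035 1 to 3. For 16 tested genes of the pharyngeal cuticle and glands it was -1.96, 0.1 and -1.22 in WTN2 and 0.22, 1.79 and 1.07 in RB1035. The array that was highest for the nas genes, WTN2 3, was thus low for the other list, and RB1035 2 was lowest for the nas genes and highest for the other list. Of those 16 genes 13 were higher in RB1035, with a median of 1.87. Only phat-5, a pharyngeal gland gene, passed the threshold. It was at least 28.1-fold higher in RB1035 and below the detection limit on all WTN2 arrays (limma adjusted p = 3.35e-05). The 7 pharyngeal gland markers, which include phat-5, had a median difference of 0.78, with 5 higher and 2 lower. The pharyngeal cuticle genes abu-9 and abu-7 differed by 1.92 (adjusted p = 0.26) and 3.23 (adjusted p = 0.65). The abu-7 probe was well above background on 1 of the 3 WTN2 arrays, so its size is uncertain. Probes of phat-1, abu-6, abu-8, abu-10, abu-13 and abu-14 were also not well above background on every WTN2 array. The sizes of the list's median and of its WTN2 deviations are therefore uncertain too. The difference between the lists was not tested. For 6 pharyngeal muscle markers the deviation was -1.09, 0.4 and -0.79 in WTN2 and -0.17, 1.11 and 0.53 in RB1035, with a median difference of 0.91.

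The epidermal nas genes had deviations of 0.1, 0.04 and -0.87 in WTN2 and of 0.08, 1.21 and -0.56 in RB1035. For 20 tested genes of moulting and the apical matrix they were -0.08, -0.19 and -0.44 in WTN2 and -0.13, 0.17 and 0.67 in RB1035. Both lists were lowest on WTN2 3, but RB1035 3 was low for the nas genes and highest for the moulting genes. The low nas value on RB1035 3 came from nas-9, which was at -1.69 there. On that array nas-38 and nas-33, at -3.87 and -3.25, lay in the middle of their own ranges. The contrast on RB1035 3 thus rests on 1 gene with a single probe. Of the 20 genes 16 were higher, with a median of 0.47, and none passed. Their median was 0.01 on slide 1 and 0.77 on slide 2. The peroxidase gene mlt-7, the matrix gene fbn-1 and the cuticle collagen gene dpy-10 had unadjusted p values of 0.00908, 0.0209 and 0.0211 by limma and differences of 1.05, 1.42 and 0.81 (adjusted p = 0.65 each). The fbn-1 probe was well above background on 1 of the 3 WTN2 arrays, so its size is uncertain. In the other direction mlt-9, which was chosen after its values were seen, differed by -0.85 (limma adjusted p = 0.65). Arrays of the strains did not overlap for 6 of the 20 genes. RB1035 was higher for mlt-7, fbn-1, dpy-10, mlt-11 and acn-1 and lower for mlt-9. Over all features 5.22% had every RB1035 array higher and 6.74% every RB1035 array lower, and the difference from these shares was not tested. The 7 tested epidermis markers had a median difference of 0.16. These lists were chosen with earlier results of these data known.

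**Figure D3:**
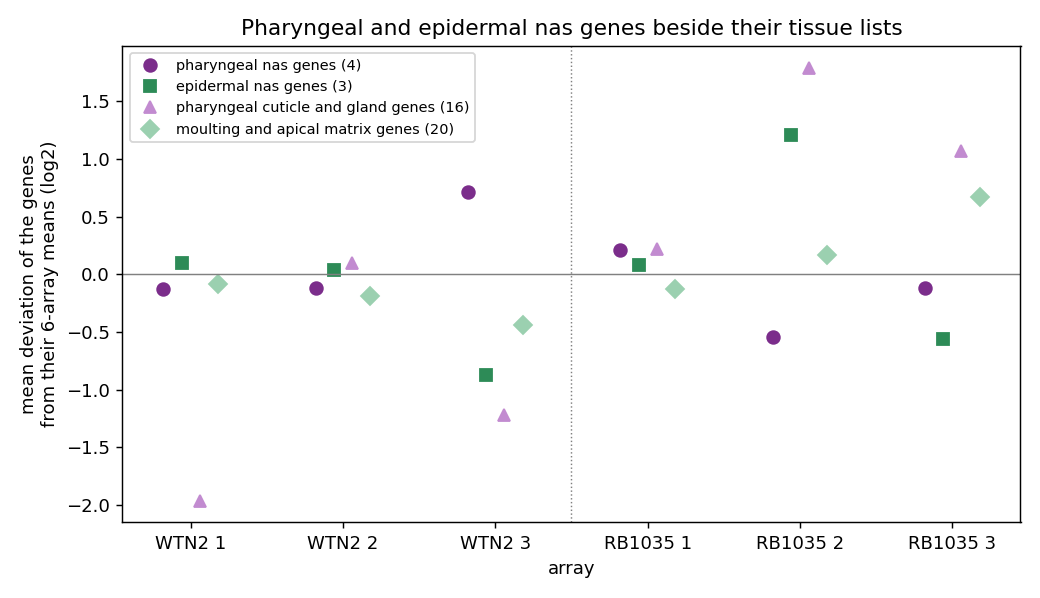
Mean log2 deviation from the 6-array means (y axis) on each array for the pharyngeal nas genes, the epidermal nas genes, the pharyngeal cuticle and gland genes and the moulting and apical matrix genes, with the number of tested genes in brackets. On WTN2 3 the pharyngeal nas genes lie at 0.71 and the pharyngeal cuticle and gland genes at -1.22, and on RB1035 2 they lie at -0.54 and 1.79.

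Of the 22 nas genes 3, none of them on the pharyngeal or epidermal list, had arrays that did not overlap between the strains. In all 3 the RB1035 arrays were higher, as they were for 5.22% of all features, and no nas gene had all RB1035 arrays lower, compared with 6.74% of all features. These shares describe the counts, and their difference was not tested. The tolloid relative nas-39 was at -3.44, -3.6 and -3.88 in WTN2 and at -3.33, -3.2 and -3.31 in RB1035. The gap between the strains was small, and RB1035 varied little. It differed by 0.36 ± 0.26 (SE), with a 95% interval from -0.23 to 0.96 (limma adjusted p = 0.673), with 0.11 on the first slide and 0.49 on the second, and was 0.24 without WTN2 3. For nas-28 of subgroup III the levels were -5.28, -5.51 and -5.09 in WTN2 and -4.99, -4.79 and -5.01 in RB1035. WTN2 3 lay closest to the RB1035 arrays. The difference was 0.37 ± 0.26 (SE; limma adjusted p = 0.673), with 0.29 on slide 1 and 0.4 on slide 2. A second nas-28 probe was never detected above background.

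The gene nas-32 was at -5.21, -5.21 and -7.28 in WTN2 and at -4.77, -4.76 and -5.09 in RB1035. WTN2 3 stood about 2 log2 units below the other wild type arrays, and those were close to RB1035 3. The difference of 1.03 ± 0.54 (SE; limma adjusted p = 0.65) became 0.34 without WTN2 3. None of the other 5 probes of nas-32 was well above background on at least 3 arrays. The largest rise of a mean belonged to nas-30, with levels of -5.38, -4.69 and -5.89 in WTN2 and of -4.82, -3.2 and -4.63 in RB1035. RB1035 2 was far above the rest, and WTN2 2 exceeded RB1035 1. It differed by 1.11 ± 0.49 (SE), with an interval from -0.02 to 2.23 (limma adjusted p = 0.65). Slide 1 gave 0.56, slide 2 gave 1.38, and the difference was 0.6 without RB1035 2.

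The largest drop of a mean belonged to nas-3, at -4.46, -6.71 and -6.87 in WTN2 and at -8.42, -6.74 and -7.02 in RB1035. WTN2 1 was bright and RB1035 1 dim, while the 4 arrays of slide 2 were nearly level. The difference of -1.37 ± 0.69 (SE; limma adjusted p = 0.65) was made of -3.95 on slide 1 and -0.09 on slide 2. It was -0.6 without WTN2 1 and -0.86 without RB1035 1. The probe was well above background on 3 WTN2 arrays and on 1 RB1035 array. The other 5 nas-3 probes never rose well above background, and with normexp background correction the difference was 0.25, where the median of all features was 0.18. The direction for nas-3 thus changed with the background correction.

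Of the remaining genes named by size, nas-25 was at -7.08, -5.45 and -5.77 in WTN2 and at -5.54, -4.98 and -5.39 in RB1035. WTN2 1 was low and not well above background, and WTN2 2 lay above RB1035 1. It differed by 0.79 ± 0.44 (SE; limma adjusted p = 0.65), by 1.54 on slide 1 but 0.42 on slide 2, and its 6 probes by 0.34 to 1.17. Without WTN2 1 it was 0.3. For nas-13 the levels were -6.19, -5.85 and -5.1 in WTN2 and -5.25, -5.03 and -5.03 in RB1035. WTN2 3 exceeded RB1035 1, and RB1035 varied little. The difference was 0.61 ± 0.33 (SE; limma adjusted p = 0.65), and a second probe gave 0.06. Without WTN2 1 it was 0.37, and without WTN2 3 it was 0.92. The 5 other nas-13 probes were well above background on at most 1 array. The other tested members, nas-8, nas-11, nas-24, nas-29 and nas-31, differed by 0.01, 0.24, -0.09, 0.24 and 0.39. The 6 probes of nas-31 differed by 0.39 to 0.75. The gene nas-11 of subgroup II was, with nas-20, the only one whose level exceeded 0 on every array, at 2.32 to 2.98 in WTN2 and 2.81 to 2.99 in RB1035.

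**Figure D4:**
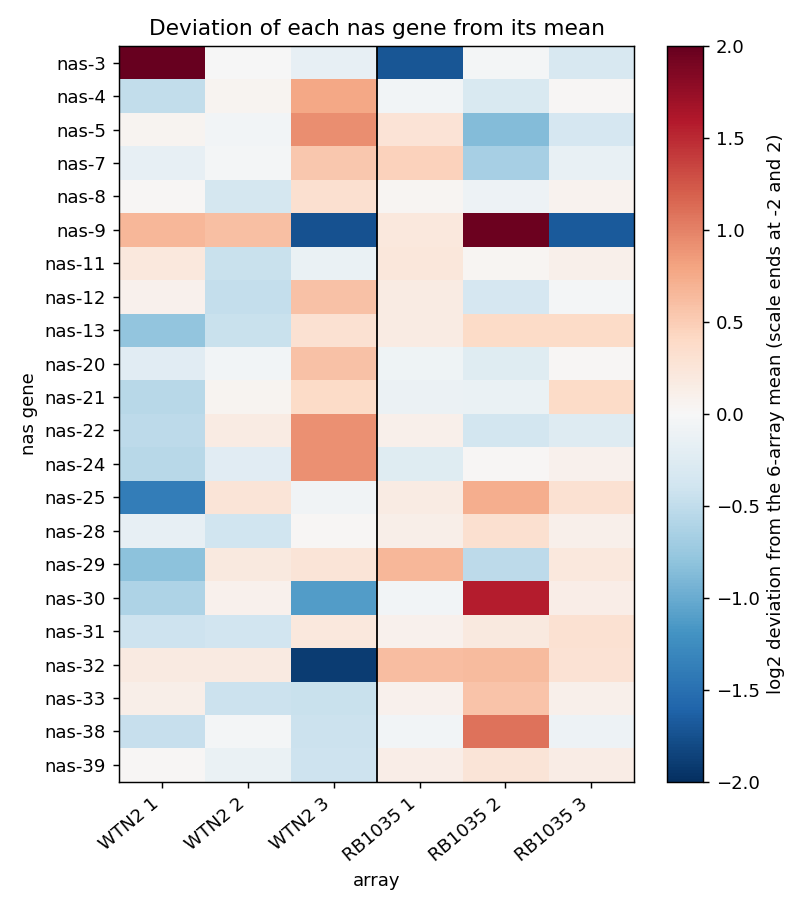
Log2 deviation of each tested nas gene (rows) from its own 6-array mean on every array (columns), with red above and blue below the mean, and the strains parted by the black line. WTN2 3 is the highest array for 9 genes and the lowest for 5, and RB1035 2 is the highest for 8 and the lowest for 3.

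Every gene has a highest and a lowest array, and these were counted for the nas genes only, without the shares over all features. WTN2 3 was the highest array for 9 of the 22 genes, nas-4, nas-5, nas-7, nas-8, nas-12, nas-20, nas-21, nas-22 and nas-24. It was the lowest for 5 others, nas-9, nas-30, nas-32, nas-33 and nas-39. RB1035 2 was highest for 8 genes, which included those 5 as well as nas-25, nas-28 and nas-38. WTN2 1 was the lowest array for 9 genes. The standard deviation was larger in WTN2 than in RB1035 for 17 of 22 nas genes, with medians of 0.53 and 0.25, while it was larger in WTN2 for 52.8% of all features, with medians of 0.38 and 0.35. This is a description, and it was not tested.

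By subgroup, the 3 tested members of subgroup I had lower means (median -0.62), 2 of them also counted above as pharyngeal. Subgroup II had 4 higher and 2 lower of 6 (median 0.12), and subgroup III 5 higher and 3 lower of 8 (median 0.16). The 2 tested nas genes of subgroup IV and the 2 of subgroup V were higher in their means, with medians of 0.71 and 0.56. Those of subgroup V, nas-33 and nas-38, were also counted above as epidermal. Only the nas genes analysed here were counted in the subgroups, and astacins with other symbols, such as dpy-31, were not. No member of a subgroup passed the threshold. The subgroups were taken from the published classification after the values had been seen.

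Of 24 further secreted or membrane-bound proteases and inhibitors 20 were tested, of which 14 were higher and 6 lower, with a median of 0.1 and none past the threshold. Among astacins with other symbols, dpy-31, which trims cuticle collagens, differed by 0.08 ± 0.26 (SE; limma adjusted p = 0.921). It was at -0.22, -0.04 and -0.22 in WTN2 and at -0.14, 0.12 and -0.22 in RB1035, and these values overlapped. The astacin gene toh-1 was at -0.86, -0.73 and -1.29 in WTN2 and at -0.64, 0.05 and -0.03 in RB1035. It differed by 0.75 ± 0.31 (SE; limma adjusted p = 0.65), with 0.21 on slide 1 and 1.02 on slide 2. Arrays did not overlap for 3 of the 20 genes, toh-1, acn-1 and mlt-11, all higher in RB1035, as they were for 5.22% of all features. The hatching enzyme gene hch-1 was not tested. The gene acn-1, whose product is related to angiotensin-converting enzyme, differed by 0.77 (adjusted p = 0.65), with 0.98 on slide 1 and 0.66 on slide 2. The protease inhibitor gene mlt-11 differed by 0.99 (adjusted p = 0.65), with 0.03 on slide 1 and 1.47 on slide 2.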

How the data were processed

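Total RNA of 6 samples was labelled with Cy3 and hybridised to 1-colour arrays, per the labels' protocols. Spot intensity was extracted with Agilent Feature Extraction 10.7.3.1, per the file headers. A deposited table of log2 values served as an alternative, and the authors' steps behind it are not given in the sources. Control spots and probes with an outlier flag (133) were left out, no spot was saturated, and spots of a probe were averaged. Each array's 75th percentile was subtracted from its log2 processed signal. Probes were named through a gene table of assembly WBcel235 (30978 by sequence name, 3342 by accession), which is not the build of the array design, so no coordinates are given. The brightest probe represented a gene. Strains were compared with limma 3.58.1 in R 4.3.3, two-sided, over 19822 features at an adjusted p of 0.05. The test sets each difference against the spread between these samples. When tested on simulated data for RB1035 against WTN2 (19822 features), the fit recovered 1.8% of changes of 2-fold. It recovered 50% of those of 4-fold and 77.1% of those of 8-fold. Each of the 10 simulations held 200 changed features, with independent normal noise and no slide effect. Recovery depends on these settings and can differ in the real arrays.

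Values on every array are given for the pharyngeal and epidermal lists, the 5 largest differences, the 5 smallest p values and members whose arrays do not overlap. From each list of other genes up to 3 with the smallest p are named. Values of nas-20, nas-22 and dpy-31, the values of toh-1 on every array, and mlt-9 were added after their values had been seen. The members and lists were chosen with earlier results of these data known. No set test was run. Sequences are not shown, since none were used here. Same-numbered arrays of the 2 strains had correlations of their deviations of 0.12, 0.12 and 0.02, so the numbers were not taken as pairs. Alternatives concerned background correction, normalization, filter, probe choice, slide, replicate block, array weights, the deposited table and leaving out each array.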

Additional observations from a re-analysis of the deposited data

How the results depend on the processing

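None of the 22 tested nas genes passed the threshold under any of the 17 alternatives with a test by limma, and the lowest adjusted p was 0.297, for nas-30 without RB1035 1. The count of all features that changed ran from 17 to 20 when 1 array was left out. It was 11 with normexp background correction and 1 under a filter that asks for detection on each of the 6 arrays. That filter leaves 17415 features, and by design it removes probes undetected throughout a strain, such as those of F56A4.3 and phat-5. With the replicate block 30 features and 0 nas genes changed. The arrays share only a number, and not every array correlated best with its own number.

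The median of the tested nas genes was 0.4 with normexp, which also moved the median of all features to 0.18, 0.13 in the authors' deposited table, 0.14 with array weights, and 0.15 to 0.27 with 1 array left out. The pharyngeal median was 0.32 on slide 1 and ran from -0.45 to 0.04 with 1 array left out. The epidermal median was -0.02 on slide 1 and ran from 0.23 to 0.82. The cause of these shifts was not tested.

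Of 371 alternative values of single nas genes 24 had the opposite sign, in 10 genes. With normexp nas-3 differed by 0.25, nas-12 by 0.36 and nas-24 by 0.44. In the authors' deposited table nas-12 differed by 0.06, nas-21 by -0.05 and nas-24 by 0.08, on slide 2 alone nas-21 by -0.09 and nas-29 by -0.39, and with array weights nas-9 by -0.31. With 1 array left out, the differences ran from -0.53 to 0.1 for nas-4, from -0.52 to 0.04 for nas-7, from -0.17 to 0.17 for nas-8, from -0.58 to 1.24 for nas-9, from -0.4 to 0.13 for nas-12, from -0.37 to 0.05 for nas-20, from -0.17 to 0.29 for nas-21, from -0.39 to 0.34 for nas-24 and from -0.11 to 0.56 for nas-29. The other 12 genes had no value of opposite sign in an alternative with a test, but nas-22 came to 0.0 without WTN2 3, and on slide 1 alone, which gives no test, nas-5, nas-22 and nas-33 were 0.21, 0.61 and -0.02. For nas-3, nas-24 and nas-25 the probe was not well above background on every array.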
